A study of Mus musculus with 8 samples.

Results

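The Dlg, Shank and Homer genes encode the main scaffold proteins of the postsynaptic density of excitatory synapses. The 10 genes described here, Dlg1 to Dlg4, Shank1 to Shank3 and Homer1 to Homer3, were taken by name from the 46078 rows of the count table, and each matched 1 row. All 10 passed the filter on low counts and were among the 15996 genes tested. Poly(A) RNA was sequenced from the hippocampus of 9-week-old C57BL/6J mice of 2 genotypes, 4 libraries each. The T29-1 Cre mice were hemizygous carriers of the transgene Tg(Camk2a-cre)T29-1Stl, in which the promoter of the kinase gene Camk2a drives Cre recombinase in forebrain excitatory neurons, and the labels name no floxed target. The WT mice carried no transgene named in the labels. The labels do not say that the libraries of a genotype came from separate animals, so the p-values measure the spread between these libraries, which may be technical.

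The 3 families form a layered scaffold under the postsynaptic membrane. Dlg proteins are membrane-associated guanylate kinases whose PDZ domains hold the tails of NMDA receptors, of the auxiliary subunits of AMPA receptors and of adhesion proteins. Adaptors of the GKAP family (Dlgap genes) link the guanylate kinase-like domain of Dlg proteins to the PDZ domain of Shank proteins. Shank proteins in turn bind the EVH1 domain of Homer proteins, which also hold group I metabotropic glutamate receptors and inositol trisphosphate receptors. Homer1 is in addition an activity-induced gene, since neuronal firing induces a short splice form, Homer1a, that lacks the coiled coil of the long forms. The counts are sums over all transcripts of a gene, so the short and long forms of Homer1 are not separated here.

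The region before the first listed RefSeq start of Homer1 sets it apart in sequence from those of Homer2 and Homer3. The 250 bases upstream of the first listed start (GRCm38.p6) of each Homer gene are shown for that reason. The GENCODE annotation, used for the gene positions below, starts each of these genes further upstream. The bases shown therefore lie wholly or partly inside the GENCODE gene. Capitals mark the letters TGACG, the core of the cyclic AMP response element, searched on both strands. The Homer1 window is chr13:93303507-93303756 on the plus strand, the Homer2 window chr7:81706926-81707175 on the minus strand and the Homer3 window chr8:70282749-70282998 on the plus strand. All are written from 5′ to 3′ in the direction of the gene.
Homer1: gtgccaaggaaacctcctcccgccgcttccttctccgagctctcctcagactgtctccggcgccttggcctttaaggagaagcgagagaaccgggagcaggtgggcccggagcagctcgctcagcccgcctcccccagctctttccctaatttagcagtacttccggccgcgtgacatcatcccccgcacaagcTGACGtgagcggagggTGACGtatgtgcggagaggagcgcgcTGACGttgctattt
Homer2: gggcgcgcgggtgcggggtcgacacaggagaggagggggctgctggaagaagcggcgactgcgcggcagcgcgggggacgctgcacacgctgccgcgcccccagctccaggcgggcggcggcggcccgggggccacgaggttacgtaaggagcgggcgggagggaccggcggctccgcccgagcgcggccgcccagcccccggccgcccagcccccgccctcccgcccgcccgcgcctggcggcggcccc
Homer3: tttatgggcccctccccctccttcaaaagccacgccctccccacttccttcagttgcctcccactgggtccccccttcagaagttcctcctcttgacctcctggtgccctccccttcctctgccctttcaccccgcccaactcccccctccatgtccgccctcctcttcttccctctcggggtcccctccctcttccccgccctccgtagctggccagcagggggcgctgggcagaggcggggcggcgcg

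The Homer1 window shown held TGACG 3 times, at 56, 40 and 14 bases before the start, and the Homer2 and Homer3 windows held it 0 times. The window of the second listed start of Homer1 held it 0 times, as did that of Homer2. Of 32851 windows of the same length before RefSeq starts, 17.8% held the motif at least once on either strand and 0.688% held it at least 3 times. The full palindrome TGACGTCA was in 0 of the 18 windows of the 8 scaffold genes that matched the table, against 1.55% of all windows. Among the remaining windows of these genes, 1 of the 2 windows of Dlg3 and 1 of the 3 windows of Dlg4 held TGACG once. These matches describe letters, not binding.

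No scaffold gene passed the test between the genotypes. The quasi-likelihood test of edgeR called 0 of the 10 genes (Benjamini-Hochberg adjusted p under 0.05 over the whole table), where 0.00625% of all genes were called, a single gene (St6gal2). An unadjusted p under 0.05 was reached by 0 of the 10 and by 2.43% of all genes. DESeq2 and limma-voom also called 0 of the 10, with 0 at that unadjusted p. T29-1 Cre and WT libraries overlapped for each of the 10 genes. Over all genes tested, 1.81% had no overlap, 0.844% with T29-1 Cre higher and 0.963% with T29-1 Cre lower. Of the 10, 7 had a positive and 3 a negative log2 fold change, with a median of 0.04, against -0.00075 over all genes tested. Without WT replicate 4, a library that stands apart, 1 was positive and 9 were negative, with a median of -0.02 (-0.0020 over all genes). Every adjusted p was 0.998 with all 8 libraries.

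**Figure D1:**
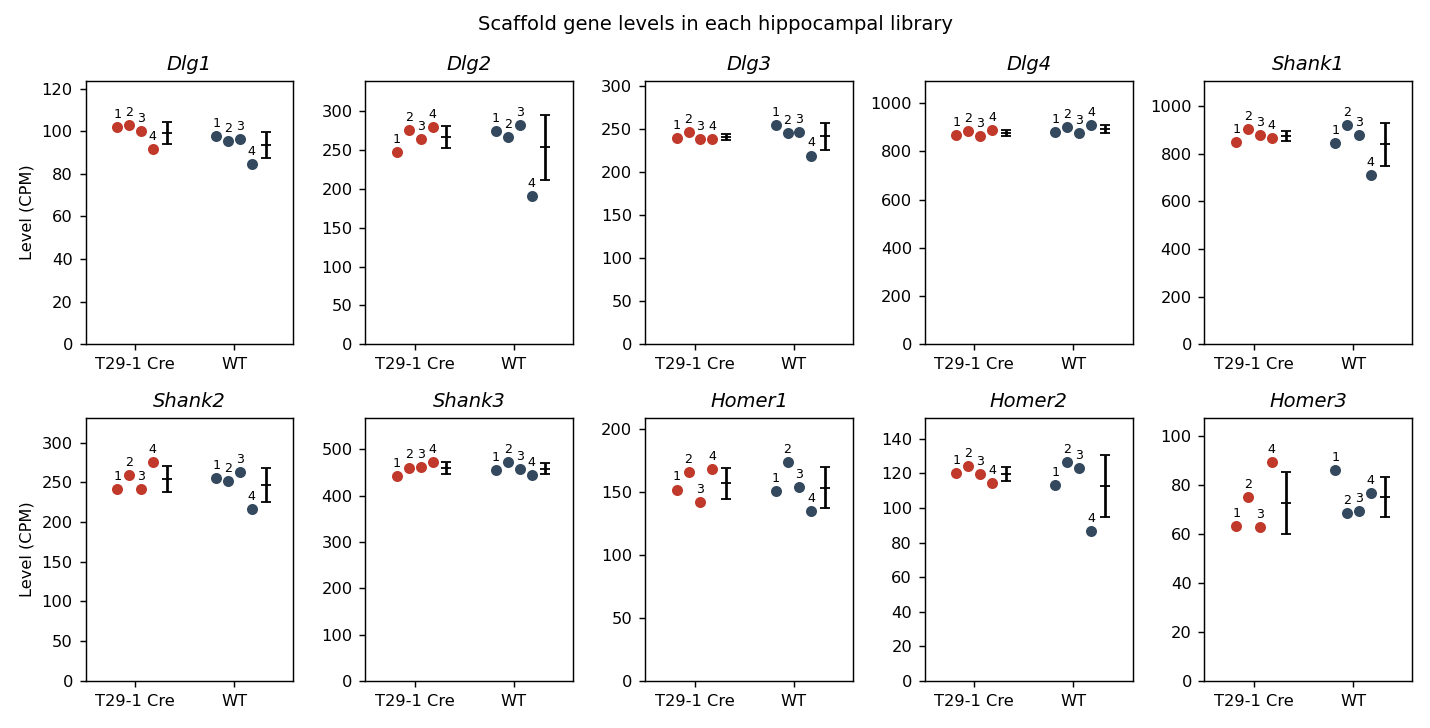
Level of each scaffold gene in CPM, a count divided by the scaled library size (vertical axis from 0), in the 4 T29-1 Cre libraries (red, left) and the 4 WT libraries (dark blue, right). Numbers are replicate numbers and the bars give the mean ± SD of the 4 libraries. The genotypes overlap in every panel, and WT replicate 4 is the lowest library for Dlg1, Dlg2, Dlg3, Shank1, Shank2, Homer1 and Homer2.

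The libraries held 23358289 to 30882631 counts in total, of which the 10 genes took 0.310% to 0.353%. Each of the 10 genes had 1673 to 26951 counts per library. On the leading principal component of all genes WT replicate 4 scored -33.4, against -0.687 to 8.74 in the other 7 libraries. The tissue label was checked against markers of hippocampal principal neurons. Prox1, of dentate granule cells, stood at 121 ± 14.7 CPM in T29-1 Cre and 118 ± 14.6 CPM in WT (SD, n = 4 each), and all 8 listed markers were tested. Prox1 was the 1 of the 8 with a positive log2 fold change, at 0.04, and the other 7 were negative, with -0.11 for Dsp and -0.10 for C1ql2, which also mark granule cells. The median of the list was -0.05, and 0 were called. Pcp2, which marks cerebellar Purkinje cells, had 3 counts in all 8 libraries together. In bulk tissue, fewer cells of a type and less RNA per cell cannot be told apart.

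Dlg4 encodes PSD-95, the most abundant Dlg protein of mature excitatory synapses, and it had the narrowest spread of the 10 genes. Its level was 868, 882, 862 and 887 CPM in the T29-1 Cre libraries and 879.8, 901, 878 and 909.5 CPM in the WT libraries, in order of replicate number here and below. The groups overlapped, although each T29-1 Cre library but replicates 2 and 4 lay below all WT libraries. The log2 fold change was -0.03 (95% interval -0.12 to 0.06, edgeR adjusted p = 0.998), and an exact permutation test, two-sided, gave p = 0.171. Between its lowest and highest library Dlg4 spanned 0.0769 on the log2 CPM scale, and 1.85% of the 2319 genes with a mean of at least 100 CPM spanned less. Dlg4 lies at chr11:70016942-70047522 (GRCm38, plus strand), where GENCODE lists 22 transcripts, 17 of them coding.

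Dlg1 encodes SAP97, a Dlg protein that also acts in receptor trafficking and at epithelial junctions, and it had the smallest unadjusted p of the 10 genes. Its level was 102, 103, 99.9 and 91.6 CPM in T29-1 Cre and 97.6, 95.6, 96.45 and 84.4 CPM in WT. Of the T29-1 Cre libraries, 3 lay above all WT libraries and replicate 4 below all but WT replicate 4. The mean was 99.1 ± 5.16 CPM in T29-1 Cre and 93.5 ± 6.13 CPM in WT (SD, n = 4 each). The log2 fold change was 0.08 (SE 0.0581, edgeR unadjusted p = 0.173, adjusted p = 0.998), and without WT replicate 4 it was 0.04. The gene lies at chr16:31663443-31875129 on the plus strand.

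Dlg2 encodes PSD-93, a paralog of PSD-95 that also holds NMDA receptors. It held 248, 276, 264 and 279 CPM in T29-1 Cre and 274, 266, 282 and 190.9 CPM in WT. WT replicate 4 was far below the other 7 libraries, which lay close together. Its log2 fold change was 0.07 with all libraries (95% interval -0.14 to 0.28) and -0.04 without WT replicate 4 (95% interval -0.14 to 0.06). Dlg2 is the longest of the 10 loci, at chr7:90476672-92449247 on the plus strand, and its exons cover 16280 bases.

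Dlg3 encodes SAP102, the Dlg protein that is prominent at immature synapses and carries NMDA receptors. It held 239, 246, 239 and 238 CPM in T29-1 Cre and 255, 245, 246 and 219 CPM in WT. The T29-1 Cre libraries lay inside the range of the WT libraries. Its means were 241 ± 3.92 CPM in T29-1 Cre and 241 ± 15.4 CPM in WT (SD, n = 4 each). The 95% interval of its log2 fold change of -0.0036 ran from -0.11 to 0.11. Dlg3 is X-linked, at chrX:100767722-100818410 on the plus strand.

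Shank1, a scaffold confined largely to the brain and known for its role in spine size, shared the top of the list in CPM with Dlg4. It held 849, 902, 878 and 866 CPM in T29-1 Cre and 844, 921, 879.7 and 710.3 CPM in WT. The WT libraries enclosed the T29-1 Cre range, with replicate 2 highest and replicate 4 lowest of all 8. The mean was 874 ± 22.3 CPM in T29-1 Cre and 839 ± 91.2 CPM in WT (SD, n = 4 each). Its log2 fold change was 0.06 (SE 0.0674), and without WT replicate 4 it was -0.01 (SE 0.04). The gene is at chr7:44310253-44360572 on the plus strand.

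Shank2 and Shank3 are both genes in which mutations are linked to autism in humans. Shank2 held 241, 259, 242 and 276 CPM in T29-1 Cre and 256, 252, 263 and 216 CPM in WT, with a log2 fold change of 0.05 (95% interval -0.09 to 0.19), and of -0.01 without WT replicate 4. Its highest library was T29-1 Cre replicate 4 and its lowest WT replicate 4. Shank3 held 443, 461, 461 and 473 CPM in T29-1 Cre and 456, 473, 457 and 445 CPM in WT. The log2 fold change of Shank3 was 0.0055 (95% interval -0.09 to 0.10), and -0.0074 without WT replicate 4. Its libraries spanned 0.0947 on the log2 scale. Among the 2319 genes with a mean of at least 100 CPM, 4.53% spanned less than Shank3 and 81.2% spanned less than Shank2. Shank2 lies at chr7:144001928-144424494 and Shank3 at chr15:89499623-89560261, both on the plus strand.

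Homer1 encodes the most widely studied Homer protein, which in its long forms tethers group I metabotropic glutamate receptors. It held 152, 166, 142 and 168 CPM in T29-1 Cre and 151, 174, 154 and 135 CPM in WT. High and low libraries were found in both genotypes, with WT replicate 2 highest and WT replicate 4 lowest. Its log2 fold change was 0.03 (SE 0.0749), and -0.02 (SE 0.062) without WT replicate 4. The exact two-sided permutation test gave p = 0.686. As Homer1 is activity-induced, it was set beside Fos, Arc, Egr1, Nr4a1, Junb, Dusp1 and Npas4, genes chosen after its values had been seen. Over the 8 libraries its Pearson r with these genes ran from -0.509 for Junb to 0.108 for Egr1. Arc, an activity-induced gene of dendrites, stood at 234, 216, 213 and 170.2 CPM in T29-1 Cre and 180.4, 251, 163 and 233 CPM in WT. WT replicate 2 was the highest library for both Arc and Homer1. T29-1 Cre replicate 4, the second-lowest library for Arc, was the second-highest for Homer1. Pearson r of Homer1 with Arc was -0.067 over all libraries and 0.188 without WT replicate 4. Homer1 lies at chr13:93299635-93405129 on the plus strand.

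Homer2 encodes a long Homer form that binds the actin regulator drebrin. It held 120.1, 124, 119.6 and 115 CPM in T29-1 Cre and 114, 127, 123 and 86.9 CPM in WT. Without WT replicate 4 all libraries lay between 114 and 127 CPM. The log2 fold change was 0.09 (SE 0.0912), the largest of the 10, and it was -0.02 (SE 0.0454) without that library. The gene lies at chr7:81600481-81707527 on the minus strand.

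Homer3, best known from cerebellar Purkinje cells, varied between libraries within both genotypes. It held 63.2, 75.2, 63.0 and 89.5 CPM in T29-1 Cre and 85.9, 68.5, 69.3 and 76.8 CPM in WT. T29-1 Cre replicate 4 and WT replicate 1 were the highest libraries, and T29-1 Cre replicates 1 and 3 the lowest. The mean was 72.7 ± 12.6 CPM in T29-1 Cre and 75.1 ± 8.10 CPM in WT (SD, n = 4 each), and the log2 fold change was -0.05 (95% interval -0.27 to 0.18). Without T29-1 Cre replicate 4 it was -0.16 and without WT replicate 1 it was 0.02. The gene lies at chr8:70282827-70294361 on the plus strand, and 25.4% of its exonic bases overlap exons of Ddx49 on the opposite strand. Ddx49 stood at 27.6 to 31.5 CPM in T29-1 Cre and 29.5 to 33.9 CPM in WT. Its Pearson r with Homer3 over the 8 libraries was -0.158 (Spearman's rho -0.0476). That r was 0.434 without the 2 libraries farthest from the median and -0.469 without WT replicate 4. The other overlaps with exons of neighbouring genes cover at most 4.16% of a scaffold gene's exonic bases.

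The gene whose pattern was most like that of Homer3 was Hapln4, which encodes a link protein of perineuronal nets. Over the 8 libraries Pearson r of log2 CPM was 0.992, Spearman's rho was 0.952, and r was 0.991 without the 2 libraries farthest from the median of Homer3. Without WT replicate 4 r was 0.992 for Hapln4, and Katnal2 was then the most similar gene, at 0.995. Hapln4 held 116, 133, 116 and 150.3 CPM in T29-1 Cre and 141, 125, 124 and 133 CPM in WT, in the same order of high and low libraries except among close values. Its r over the 8 libraries was the highest of 11501 genes with a mean of at least 5 CPM, so it was selected to be high. The points share the libraries' depth and composition. The listed markers of cerebellar Purkinje cells that were tested, 3 of 4, summed to 132 to 141 CPM in T29-1 Cre and 135 to 149 CPM in WT, nearly all of it Calb1. Calb1 is also expressed in dentate granule cells and interneurons.

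The 95% intervals of the edgeR fit give the precision of these comparisons. Over the 10 genes the highest upper limit of a 95% interval was 1.22-fold, for Homer2, and the lowest lower limit was 0.828-fold, for Homer3. For Dlg4 the interval ran from 0.923-fold to 1.04-fold and for Shank3 from 0.941-fold to 1.07-fold. In the authors' deposited table the log2 fold changes of the 10 genes ran from -0.05 for Homer3 to 0.09 for Homer2, and the smallest unadjusted p was 0.197, for Dlg1.

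**Figure D2:**
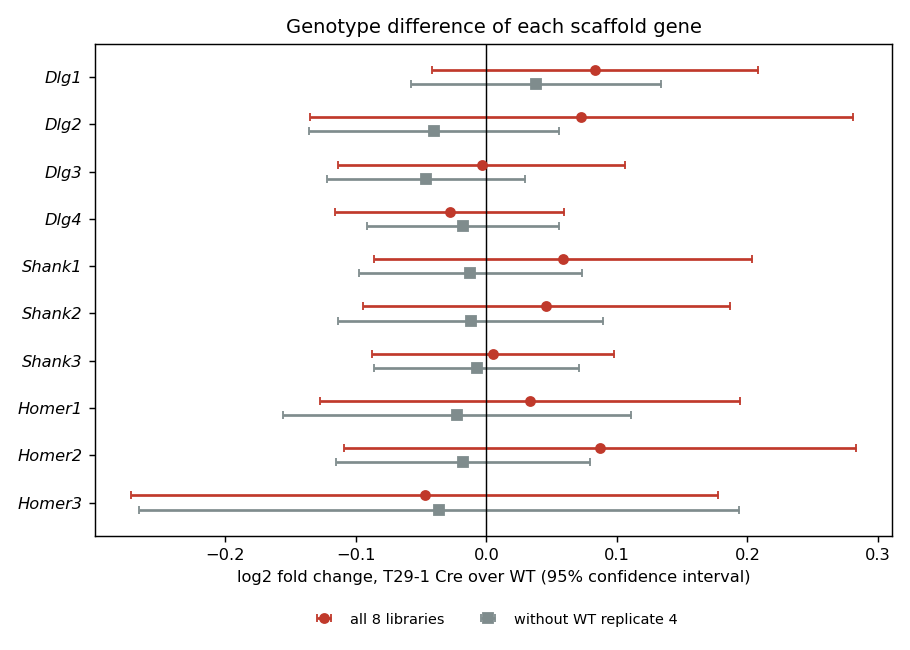
Log2 fold change of each scaffold gene (horizontal axis, T29-1 Cre over WT), with 95% confidence intervals from the fit of all genes, for all 8 libraries (red circles) and without WT replicate 4 (grey squares). All 20 intervals contain 0, and the values of Dlg2, Shank1, Shank2, Shank3, Homer1 and Homer2 are above 0 with all libraries and below 0 without WT replicate 4.

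Levels of different genes were compared as CPM per kilobase of exons, which takes out gene length. Shank1 was highest, at 83.1 ± 2.12 in T29-1 Cre and 79.8 ± 8.67 in WT (SD, n = 4 each), and was followed by Dlg4 at 66.0 ± 0.877 in T29-1 Cre and 67.3 ± 1.19 in WT. Shank3 stood at 50.0 ± 1.31 in T29-1 Cre and 49.8 ± 1.28 in WT, and Dlg3 at 41.2 ± 0.672 in T29-1 Cre and 41.3 ± 2.63 in WT. The middle of the order was held by Shank2, Homer3, Dlg2 and Homer1, with means over all libraries of 23.3, 21.5, 15.97 and 12.95. Homer2 and Dlg1 were lowest, at 9.20 and 8.97.

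Some neighbours in this order were not separated. Shank1 was above Dlg4 in 7 of 8 libraries, Shank2 above Homer3 in 5, and Homer2 above Dlg1 in 6, and the ranges over libraries overlapped in each of these pairs. The ranges of Dlg2 and Homer1 overlapped as well, but Dlg2 was higher in all 8 libraries. The other neighbours did not overlap. The order also depends on which length is used, since transcripts of a gene differ in length. Per kilobase of the longest annotated transcript Dlg4 came first, at 139.7, and Shank1 second, at 87.1, while Dlg2 moved to the fifth place and Shank2 to the seventh. Against 15188 genes with a length, Shank1 and Dlg4 stood at the 97.3 and 96.4 percentiles of CPM per kilobase and Dlg1 and Homer2 at 67.4 and 68.1.

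**Figure D3:**
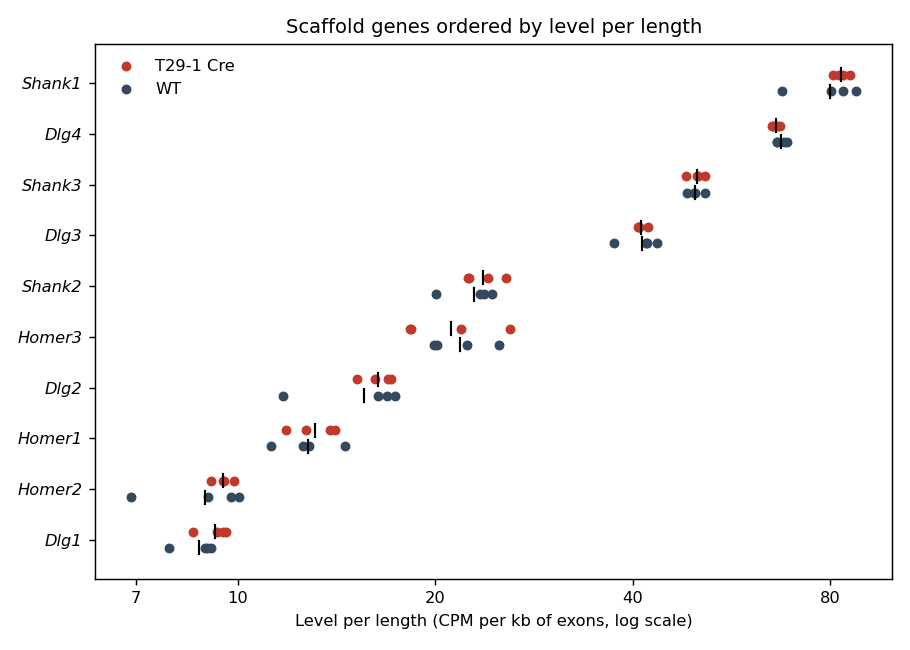
Level of each scaffold gene in CPM per kilobase of exons (horizontal axis, log scale) in T29-1 Cre (red, upper row of each gene) and WT (dark blue, lower row) libraries. Points are libraries and black ticks the means of 4. Shank1 and Dlg4 lead and Homer2 and Dlg1 are last, and the order of the genes is far wider than the spread within any gene.

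Per kilobase of exons, Dlg4, Shank1 and Homer3 held the biggest shares of their families in both genotypes. These leads depend on the length used. Per kilobase of the longest transcript, Homer3 and Homer1 averaged 27.9 and 27.5 CPM in T29-1 Cre, and 28.8 and 26.8 CPM in WT. Homer1 was then above Homer3 in some libraries of each genotype, so by that length Homer3 held no clear lead. By that length Dlg4 and Dlg3 averaged 138 and 48.0 CPM in T29-1 Cre, and 141 and 48.1 CPM in WT. Shank1 and Shank3 averaged 88.9 and 62.4 CPM in T29-1 Cre, and 85.4 and 62.2 CPM in WT. The shares that follow are per kilobase of exons. Dlg4 gave 49.7% ± 0.433 of the summed per-length level of the Dlg genes in T29-1 Cre and 50.7% ± 2.65 in WT (SD, n = 4 each), followed by Dlg3 with 31.0% in both. Shank1 gave 53.0% ± 0.909 of the Shank level in T29-1 Cre and 52.2% ± 1.83 in WT. Homer3 gave 48.1% ± 3.41 of the Homer level in T29-1 Cre and 50.2% ± 5.04 in WT, and Homer1 30.03% ± 1.13 in T29-1 Cre and 29.4% ± 2.54 in WT. The shares overlapped between the genotypes for all 10 genes, and they were not tested. The summed level was 133 ± 1.96 CPM per kilobase for the Dlg genes in T29-1 Cre and 133 ± 4.79 in WT. It was 157 ± 3.96 in T29-1 Cre and 153 ± 11.6 in WT for the Shank genes, and 43.7 ± 4.45 in T29-1 Cre and 43.6 ± 2.59 in WT for the Homer genes.

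Among themselves the scaffold genes differed most in WT replicate 4. In this library 8 of the 10 lay below their mean over all libraries, by 0.44 for Dlg2, 0.41 for Homer2 and 0.27 for Shank1 on the log2 scale, while Dlg4 lay 0.04 above. The median deviation of the 10 genes was -0.19 there, against -0.02 to 0.07 in the other libraries. Over 11502 genes at 5 CPM or more the median in WT replicate 4 was 0.0067. Regardless of sign, the median deviation over these genes was 0.122 in WT replicate 4, against 0.047 to 0.061 in the other libraries. Over the 10 genes the deviation in WT replicate 4 had a Spearman correlation of -0.733 with the length of the longest transcript, and over 11063 genes this value was -0.646. With the length of all exons it was -0.564 over the 10 genes and -0.595 over all, and with GC content 0.333 over the 10 genes and 0.439 over all. Genes of 1 library are not independent replicates, and the part of length and GC content in these values was not tested. Of the pairs of scaffold genes, 36 of 45 had a Pearson r above 0 over the 8 libraries, with a median of 0.562, and without WT replicate 4 there were 31 with a median of 0.319. Shank1 and Homer2 had the highest r, at 0.980, with a Spearman's rho of 0.929, and r was 0.833 without WT replicate 4.

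**Figure D4:**
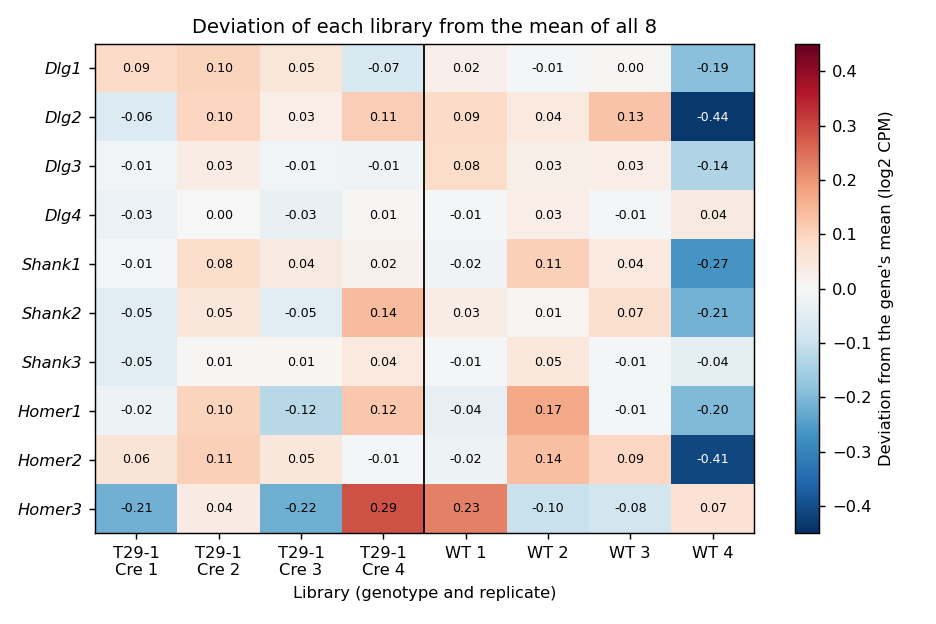
Deviation of each library (columns, T29-1 Cre left of the line and WT right of it) from the mean of all 8 libraries for each scaffold gene (rows), in log2 CPM, with red above and blue below the mean. WT replicate 4 is low for 8 of the 10 genes, Dlg4 and Shank3 are near 0 throughout, and Homer3 is high in T29-1 Cre replicate 4 and WT replicate 1.

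Genes of proteins that bind the scaffolds were read from the same fit. Of 51 partner genes in 6 lists, edgeR called 0 in either direction and 2 had an unadjusted p under 0.05, and DESeq2 and limma-voom each called 0 with 2 at an unadjusted p under 0.05. Their log2 fold changes were positive for 32 and negative for 19 (median 0.03), and without WT replicate 4 for 21 and 30. The GKAP adaptors (0 of 4 called, median 0.0049) had log2 fold changes of 0.08 for Dlgap2 and -0.04 for Dlgap3, and of -0.03 and -0.0089 without WT replicate 4. Of the 15 other guanylate kinase and PDZ scaffolds, 0 were called (median 0.06), and both genes with a small unadjusted p were of this list. Grip2, a scaffold that binds AMPA receptors, held 15.8, 15.9, 15.8 and 15.7 CPM in T29-1 Cre and 14.2, 13.03, 13.8 and 12.9 CPM in WT. All 4 T29-1 Cre libraries lay above all 4 WT libraries, with a log2 fold change of 0.23 (SE 0.065, edgeR adjusted p = 0.998). Lin7a, an adaptor that joins Cask at the membrane, held 58.5, 61.2, 56.6 and 63.4 CPM in T29-1 Cre and 56.0, 55.1, 55.2 and 43.5 CPM in WT. Its log2 fold change was 0.19 (SE 0.0745, adjusted p = 0.998), and it was 0.11 without WT replicate 4. These 2 of the 51 partner genes were without overlap, both with T29-1 Cre higher, against 0.844% of all genes in that direction.

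In the remaining lists the libraries of the genotypes overlapped for every gene. Of 12 enzymes and ligands bound to Dlg proteins 0 were called (median 0.03), with 0.15 (SE 0.0729) for Nos1, the neuronal nitric oxide synthase tethered by PSD-95, and 0.11 for Frmpd4. Of 6 Shank partners 0 were called (median -0.03), with -0.10 (SE 0.057) for Baiap2, an actin regulator, and -0.06 for Lzts3. Of 8 Homer ligands 0 were called (median -0.003), with -0.07 for Dbn1, which encodes drebrin, and 0.11 for Grm5, the group I receptor of hippocampal pyramidal cells. Of 6 enzymes that add or remove the palmitate of proteins 0 were called (median 0.02), with -0.05 for Abhd17a and 0.05 for Zdhhc5. Leaving out WT replicate 4 moved most of these named genes toward 0. Frmpd4 was then at 0.02, Grm5 at 0.02, Baiap2 at -0.04, Dbn1 at -0.04 and Lzts3 at 5.5e-05. Nos1 was at 0.10, and the signs of Abhd17a and Zdhhc5 turned, to 0.01 and -0.0085.

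Of the named cell type markers tested, 0 were called. Slc17a7, the vesicular glutamate transporter of excitatory neurons, stood at 1703 ± 136 CPM in T29-1 Cre and 1734 ± 99.2 CPM in WT, and Gad1, of interneurons, at 329 ± 10.6 CPM in T29-1 Cre and 321 ± 6.85 CPM in WT (SD, n = 4 each). Mbp, of oligodendrocytes, had a log2 fold change of -0.05, and all 6 oligodendrocyte markers were negative, with a median of -0.09 and 0 called. Aqp4, of astrocytes, had 0.06, the highest of 5 astrocyte markers, of which 3 were negative and the median was -0.02. The summed markers of excitatory neurons ran from 3230 to 3531 CPM in T29-1 Cre and from 3262 to 3792 CPM in WT, and those of interneurons from 757 to 828 CPM in T29-1 Cre and from 765 to 779 CPM in WT. Ttr, of the choroid plexus, was at 11.3 ± 11.1 CPM in T29-1 Cre and 2.08 ± 1.54 CPM in WT (log2 fold change 2.39, unadjusted p = 0.00212, edgeR adjusted p = 0.998), with overlapping libraries. A single library held 744 of its 1423 counts. The other tested markers of the choroid plexus and ependyma stood at 0.07 for Kl, -0.03 for Foxj1 and -0.30 for Ccdc153, and the list median was 0.02. The part of these markers in the levels of the scaffold genes was not tested.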

How the data were processed

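Libraries were strand-specific, per the labels' protocols. GRCm38 is the build in the submitters' processing notes, which list the tools STAR (2.6.1d), featureCounts and edgeR (3.11). The sources used here do not give the strand setting of counting, the annotation release or how multi-mapped reads were treated. For 8 libraries, the authors deposited raw read counts per gene name for 8 libraries, and a table of their own comparison that holds log2 fold changes, a fold change with a minus sign for lower values (used here as a score), a mean CPM and unadjusted p-values, per the file headers.

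Counts were analysed in R 4.3.3 with edgeR 4.0.16, with filterByExpr (minimum count 10, minimum total 15), TMM scaling and the quasi-likelihood F test of T29-1 Cre over WT with no covariate. P-values were Benjamini-Hochberg adjusted over all 15996 genes tested, with a threshold of 0.05. An exact permutation test of each scaffold gene used all 70 assignments and can give no p below 0.0286. Log2 CPM used a prior count of 2. Positions and lengths came from GENCODE M21. Erbin was matched under its older symbol Erbb2ip. The edgeR fit alone was tested on simulated data.

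The 10 genes, the lists and the tests were chosen with earlier results of these data known. Named partner genes were those past the threshold or else the 2 of each list with the smallest p. Alternatives were DESeq2 1.42.0, limma-voom (limma 3.58.1), 3 other scalings, 2 other filters, a replicate block and each library left out in turn.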

Additional observations from a re-analysis of the deposited data

Results flagged for a closer look

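In each genotype the 10 genes and the 3 family sums were searched for single libraries set apart from the remaining 3. Of 26 such groups, 3 had one, and about 1 in 20 separate groups would by chance. The groups are not separate, since the family sums hold the same genes, so the comparison is only rough. The Dlg sum includes Dlg1, and both were flagged in WT replicate 4. Dlg1 in WT replicate 4 was at 84.4 CPM, with the other WT libraries at 95.6 to 97.6 CPM. The summed Dlg level in WT replicate 4 was 125.7 CPM per kilobase, with the others at 135 to 136. Dlg3 in T29-1 Cre replicate 2 was at 246 CPM, with the others at 238 to 239 CPM, a gap that is small beside its level.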

How the results depend on the processing

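No scaffold gene was called in any of the 16 alternatives (smallest adjusted p 0.892), and 144 of 160 log2 fold changes kept their sign. Of the 16 that turned, all but Shank3 with upper quartile scaling were in fits with 1 library left out. Without WT replicate 4 the signs of Dlg2, Shank1, Shank2, Shank3, Homer1 and Homer2 turned. The fits of all 8 libraries share their data, so a kept sign there says little. With no filter on low counts 2 genes of the whole table were called, and with the replicate block also 2, neither of them a scaffold gene. No pairing of the libraries by replicate number was seen. Deviations of same-numbered libraries from their genotype means correlated at -0.0732, 0.0535, 0.0179 and -0.0345. Only the libraries numbered 2 correlated best with each other. The WT means include WT replicate 4, which stands apart, so these values cannot exclude a pairing. Under the block the smallest adjusted p of the 10 genes was 0.997. With upper quartile scaling Shank3 was at -0.0011. With each library left out in turn, the log2 fold change ran from -0.040 to 0.13 for Dlg2, -0.046 to 0.022 for Dlg3, -0.012 to 0.11 for Shank1, -0.012 to 0.078 for Shank2, -0.0086 to 0.022 for Shank3, -0.022 to 0.10 for Homer1, -0.018 to 0.15 for Homer2 and -0.16 to 0.022 for Homer3. Genes called over the whole table stayed at 1 in each of these fits. A prior count of 0.5 left every permutation p on the same side of its threshold. Dlg1 ran from 0.04 to 0.12 and Dlg4 from -0.04 to -0.02. Per kilobase of the longest transcript, the level moved by more than its SD for 9 of the 10 genes. Counting error was not separated from the spread between the 4 libraries of a genotype.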

Other observations

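For each of the other scaffold genes the most similar gene over the 8 libraries was sought among 11501 genes, as a description. Shank1 was most like Dcaf17 (Pearson r 0.998, Spearman's rho 0.976), with or without WT replicate 4. Dlg3 was most like Prex2 (r 0.978, rho 0.857), again with or without that library. For Dlg2 the gene was Atm (r 0.996, rho 0.976) with all libraries, and for Homer2 it was Map3k2 (r 0.989, rho 0.905) with all libraries and Mat2a without WT replicate 4. Dlg4 was most like Kdelr2 (r 0.960, rho 0.905), which codes for a receptor that returns proteins to the endoplasmic reticulum, and Gzf1 took this place without WT replicate 4. Leaving out the 2 libraries farthest from the median, r was 0.974 for Dcaf17, 0.920 for Prex2, 0.969 for Atm, 0.852 for Map3k2 and 0.895 for Kdelr2. The remaining genes were most like Cramp1l for Dlg1 (r 0.980, rho 0.952, and r 0.923 without those libraries), Pgm2l1 for Shank2 (r 0.992, rho 1, and r 0.954), Ralgps2 for Shank3 (r 0.933, rho 0.905, and r 0.928) and Kdm7a for Homer1 (r 0.976, rho 1, and r 0.955). All these pairs share the depth and composition of their libraries.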
